A study of Homo sapiens with 12 samples.

Results

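Claudin-1 (CLDN1) and 8 other genes of cell-cell junctions were followed in BJ, a human foreskin fibroblast line in long use. The set was chosen by a measured value, the higher CLDN1 signal after EZH2 knockdown than after control siRNA, and asks whether other junction genes shared it. Beside CLDN1 it holds the claudins CLDN11 and CLDN12, occludin (OCLN), the tight junction scaffold TJP1, the adhesion molecule F11R, the cadherins CDH2 and CDH11, and the connexin GJA1. Of these 9 genes, 8 had at least 1 probe under their symbol, out of 20046 genes with a probe, and these 8 genes had 10 probes. F11R was not analysed here, because no probe carried that symbol. After the filter on detection, 8 probes of 7 genes were tested, and both OCLN probes fell outside it.

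Expression was measured on 12 Illumina bead arrays, 3 for each of 4 groups. Every culture had 72 h with a lentivirus, and siRNA was then given for 60 h. In the T350A re-expression group, cells received virus encoding siRNA-resistant EZH2 with the T350A substitution, followed by EZH2 siRNA. In the EZH2 re-expression group the virus encoded siRNA-resistant EZH2 without that substitution, again followed by EZH2 siRNA. The si-EZH2 group received a control virus and EZH2 siRNA, and the si-Control group a control virus and control siRNA. The study concerns T350, a phosphorylation site of EZH2, and repression by this histone methyltransferase, the catalytic subunit of Polycomb repressive complex PRC2. The labels leave unsaid whether the 3 arrays of a group stand for separate cultures. The p-values therefore speak of the spread among the arrays at hand, which may be technical. The small number of arrays limits the precision of every value.

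Tight junctions are strands of claudins and occludin that close the space between neighbouring cells, and scaffolds such as TJP1 (ZO-1) tie them to actin. Adherens junctions hold cells together through cadherins bound to catenins, and gap junctions are channels of connexins that let small molecules pass between cells. Fibroblasts form no sealing epithelium, but they touch one another through the mesenchymal cadherins CDH2 and CDH11 and through GJA1 (connexin 43). CLDN1 is best known as a barrier protein of the epidermis and other epithelia.

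EZH2 itself separated the 4 groups on 2 of its 3 probes. On the log2 scale of normalised intensity, probe ILMN_1652913 read 7.93 to 8.06 in T350A re-expression, 8.46 to 8.62 in EZH2 re-expression, 5.12 to 5.59 in si-EZH2 and 6.13 to 6.43 in si-Control cells. Probe ILMN_2364529 gave the same order, with 7.04 to 7.32, 8.46 to 8.50, 4.59 to 4.73 and 5.42 to 5.86 in those groups. The third EZH2 probe, ILMN_1708105, read 5.70 to 6.14 in T350A re-expression, 5.68 to 5.99 in EZH2 re-expression and 5.56 to 5.77 in si-EZH2 cells, all below the 6.68 to 6.96 of si-Control cells. Between 20658 and 21910 of 47231 probes were detected per array, and pairs of arrays correlated at 0.9931 to 0.9958 across all probes. All 10 fibroblast markers were detected on all 12 arrays, with mean log2 levels of 13.64 to 13.89 per array. Of 13 epithelial markers, CDH1, KRT5, KRT14, ESRP1 and GRHL2 were detected on 0 of 12 arrays, CDH3, ELF3 and CLDN4 on 1, 3 and 6, and EPCAM, KRT8, KRT18, KRT19 and CLDN7 on all 12. The brightest of these was KRT19, with a mean log2 level of 12.07. Of 7 leukocyte markers, PTPRC and CD3E were detected on 0 arrays, ITGAM, LCP1 and CD52 on 3, 6 and 11, and CD14 and CD68 on all 12, CD68 at a mean of 11.03.

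The promoters of the claudins are shown because EZH2, as part of PRC2, is known for acting at promoters rich in CG dinucleotides. CLDN1 can so be set beside CLDN11 and CLDN12. Whether CG content has a part in the values of these genes was not tested. Each line gives the 250 bases before the start of transcription, from RefSeq on GRCh38.p14, 5′ to 3′ on the strand of the gene, with CG in capitals. CLDN1 lies at chr3:190322447-190322696 on the minus strand, CLDN11 (the first of its start sites) at chr3:170418618-170418867 on the plus strand, and CLDN12 at chr7:90403211-90403460 on the plus strand.
CLDN1: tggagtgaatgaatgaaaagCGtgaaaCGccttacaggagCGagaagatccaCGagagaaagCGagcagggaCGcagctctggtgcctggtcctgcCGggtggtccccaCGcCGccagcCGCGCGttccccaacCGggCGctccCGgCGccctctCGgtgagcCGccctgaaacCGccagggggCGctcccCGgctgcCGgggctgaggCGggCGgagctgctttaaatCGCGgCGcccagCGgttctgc
CLDN11: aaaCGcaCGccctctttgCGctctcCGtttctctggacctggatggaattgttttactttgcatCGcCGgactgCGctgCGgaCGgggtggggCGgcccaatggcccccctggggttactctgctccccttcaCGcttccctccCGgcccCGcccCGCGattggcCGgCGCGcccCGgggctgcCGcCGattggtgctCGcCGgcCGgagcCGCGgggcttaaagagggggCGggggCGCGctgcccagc
CLDN12: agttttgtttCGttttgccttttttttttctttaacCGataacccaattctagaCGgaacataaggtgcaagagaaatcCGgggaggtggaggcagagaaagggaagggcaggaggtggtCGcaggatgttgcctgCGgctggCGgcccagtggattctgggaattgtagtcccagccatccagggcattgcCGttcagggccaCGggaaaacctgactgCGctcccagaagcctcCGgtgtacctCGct
The CLDN1 stretch holds 28 CG, and 15.9% of 35116 RefSeq promoter stretches of this length hold as many or more. The first start site of CLDN11 holds 29 CG, and 14.1% of promoters hold as many or more. Its other start site, with the stretch chr3:170420976-170421225, holds 2 CG, and 85.3% of promoters hold as many or more. CLDN12 holds 12, near the median of 11 over all promoters. Promoters were found for 7 of the 9 genes, 13 stretches in all, and not for CDH11 and F11R. The motif CAGGTG, an E-box bound by SNAI and ZEB repressors, was searched on both strands (on the other strand it reads CACCTG). It lay in 3 of the 13 stretches, both of OCLN and 1 of TJP1, and in 17.5% of all promoters. The CLDN1 stretch held none of these letters.

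CLDN1 was high in all 3 groups that received EZH2 siRNA and low in si-Control cells. Its single probe, ILMN_1724686, read 7.44, 7.43 and 7.50 in T350A re-expression cells, 7.50, 7.23 and 7.68 in EZH2 re-expression cells, 7.97, 7.93 and 8.07 in si-EZH2 cells, and 5.0, 5.46 and 5.27 in si-Control cells. Before normalisation the intensities were 222, 207 and 211 with T350A re-expression, 201, 174 and 237 with EZH2 re-expression, 296, 266 and 304 in si-EZH2 cells, and 80.3, 84.8 and 78.1 in si-Control cells. In si-Control cells the probe stood just above background, with detection p-values of 0.039, 0.00519 and 0.00649, whereas all 9 arrays with EZH2 siRNA gave 0. The arrays of si-EZH2 cells were above all others, both re-expression groups overlapped each other, and the si-Control arrays were below all others. In these cultures a change in the number of cells that express a gene and a change in RNA per cell cannot be told apart.

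**Figure D1:**
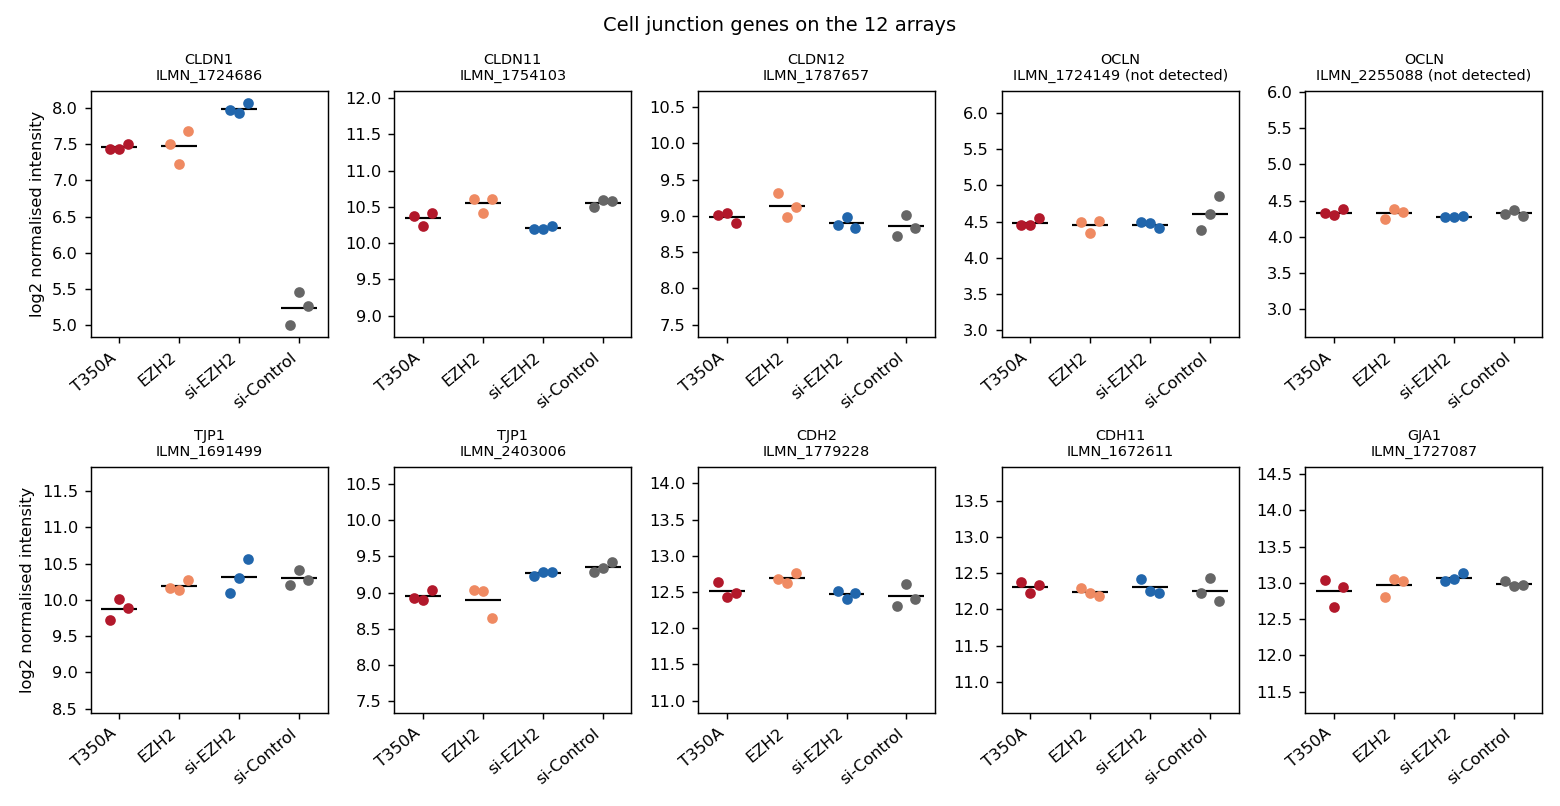
Log2 normalised intensity of the 10 junction probes on each array, with 1 panel per probe and the groups T350A re-expression, EZH2 re-expression, si-EZH2 and si-Control from left to right. Points are arrays and bars are means of 3. All panels span the same number of log2 units. CLDN1 has means of 7.46, 7.47, 7.99 and 5.24 in these groups, while the means of each other probe differ far less.

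Knockdown of EZH2 was the contrast in which CLDN1 drew attention, so its values there are a description. CLDN1 averaged 7.99 ± 0.0722 in si-EZH2 cells and 5.24 ± 0.232 in si-Control cells (SD, n = 3 each). The log2 difference was 2.75 ± 0.13 (SE), or 6.71-fold, the highest of all 23313 tested probes. This size depended on how background was handled, because the si-Control level lay close to it: the difference was 1.74 without background correction, 2.00 with an offset of 50 in place of 16, and 1.93 in the authors' own normalised values.

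Re-expression of EZH2 left CLDN1 well above the si-Control level. CLDN1 averaged 7.46 ± 0.0355 in T350A re-expression cells and 7.47 ± 0.226 in EZH2 re-expression cells (SD, n = 3 each). Against si-Control, whose arrays also took part in the choice of the gene, the differences were 2.21 ± 0.13 for T350A re-expression (4.64-fold) and 2.23 ± 0.13 for EZH2 re-expression (4.68-fold). They ranked 1 and 3 among 23313 probes in those comparisons. With si-Control near background, these sizes too depended on its handling, and without background correction the differences were 1.32 for T350A re-expression and 1.33 for EZH2 re-expression.

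The step down from knockdown to re-expression was small beside that. In EZH2 re-expression cells CLDN1 fell by 0.52 on the log2 scale relative to si-EZH2 cells (SE 0.13, 95% interval -0.80 to -0.24, 1.43-fold lower, limma adjusted p = 0.045, lower on 3 of 3 arrays). That call was lost in 9 of 12 fits that left out 1 array, with differences of -0.63 to -0.40 over the 12 and adjusted p up to 0.171. It was kept without si-Control replicate 1 or 2 or EZH2 re-expression replicate 3, and lost without any other array. It was also lost in fits that tested all probes, used only the compared groups, or took chip section or replicate number as a covariate. Chip section, the place of an array on the chip, was fitted as a linear term and is confounded with group to differing degrees. T350A re-expression lay on sections B, D and L and EZH2 re-expression on I, J and K. The si-EZH2 arrays lay on E, G and H, and si-Control on A, C and F. The EZH2 re-expression sections thus lay apart from those of si-EZH2 and si-Control, while those of T350A re-expression were spread among the others. Section and group can therefore not be fully told apart, whether a call is kept or lost in that fit. In T350A re-expression cells the difference from si-EZH2 cells was -0.53 ± 0.13 (95% interval -0.81 to -0.25, 1.44-fold lower, limma adjusted p = 0.101), not called, although again all 3 arrays lay below. That one was called without background correction (adjusted p = 0.00926), with offset 50 (0.0139), in the authors' values (0.0152) and with limma-trend (0.0239). Both comparisons use the si-EZH2 arrays on which CLDN1 was picked. The mutant and the unmutated protein did not differ detectably: T350A re-expression minus EZH2 re-expression was -0.01 ± 0.13, with a 95% interval of -0.29 to 0.27 (adjusted p = 0.99).

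None of the other 7 junction probes followed CLDN1 upward. In si-EZH2 against si-Control cells their log2 differences ran from -0.35 to 0.09, against 2.75 for CLDN1. The fit called 1 of 8 junction probes in this comparison, which was CLDN1, beside 2.84% of all tested probes, and nothing is read from that count because the contrast was used for the choice. Arrays of si-EZH2 and si-Control cells did not overlap for 4 of the 8 probes, 2 above and 2 below, where 21.4% of all tested probes did not overlap.

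**Figure D2:**
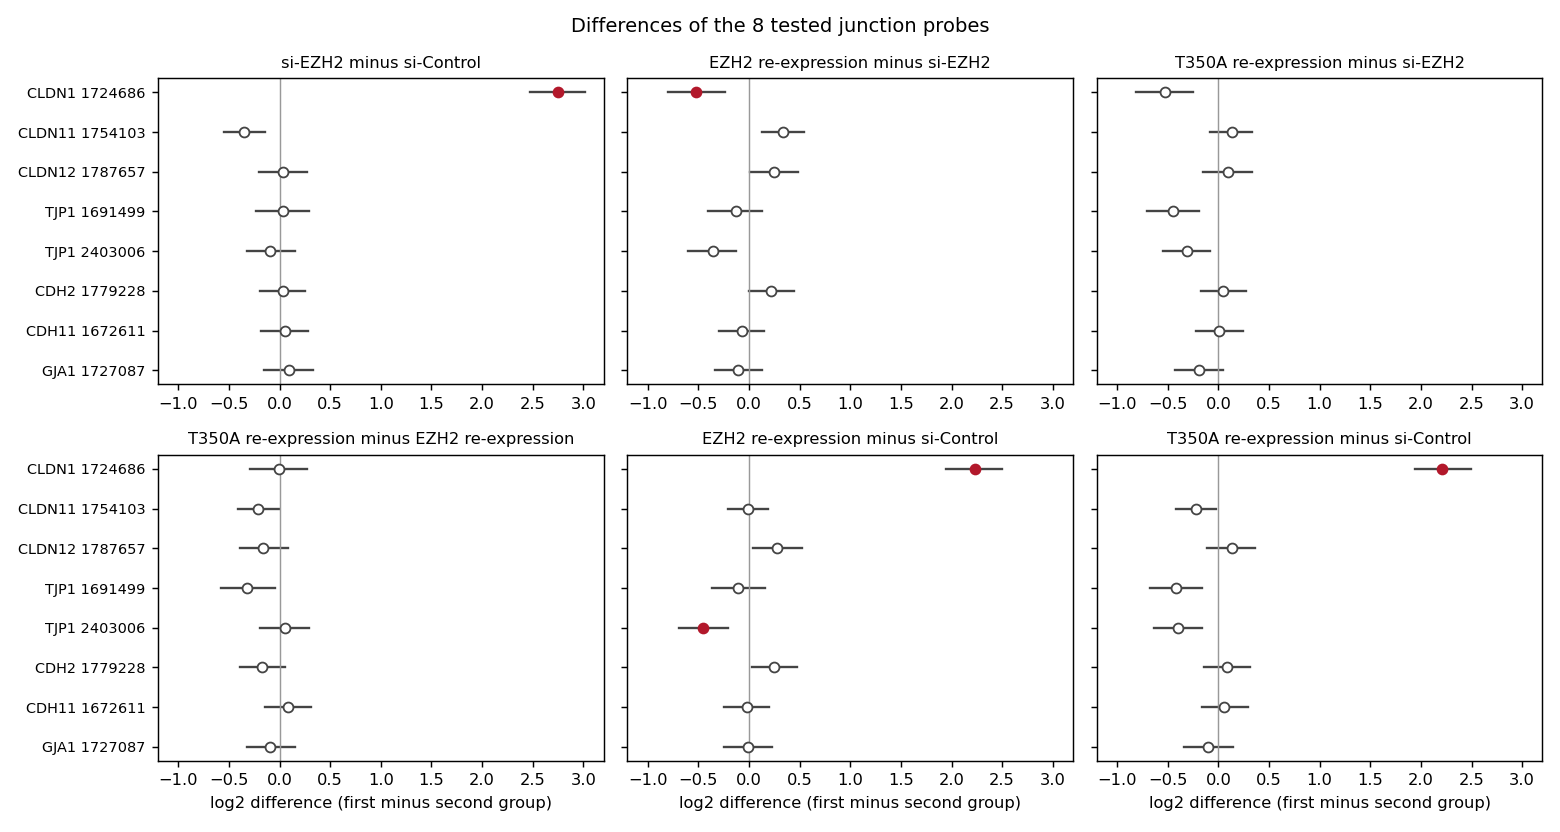
Log2 differences of the 8 tested junction probes in 6 comparisons, first group minus second, with 95% intervals from the fit over 12 arrays. Probe numbers are given without their ILMN prefix. Filled points passed an adjusted p of 0.05. CLDN1 stands at 2.75, 2.23 and 2.21 in the comparisons with si-Control, and the other probes lie between -0.45 and 0.34.

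CLDN11, the claudin of myelin and of the testis barrier, ran the other way. Its probe ILMN_1754103 read 10.37, 10.24 and 10.41 in T350A re-expression cells, 10.61, 10.42 and 10.61 in EZH2 re-expression cells, 10.20, 10.19 and 10.24 in si-EZH2 cells, and 10.50, 10.59 and 10.58 in si-Control cells. The si-EZH2 arrays were the lowest, the T350A re-expression arrays came next, the lowest of them level with the highest si-EZH2 array at the precision shown, and EZH2 re-expression and si-Control overlapped. The si-EZH2 minus si-Control difference was -0.35 ± 0.0959 (95% interval -0.55 to -0.14), uncalled in this fit, but called in 7 of 12 alternative fits over all arrays and in 0 of 12 that left out 1 array. With EZH2 re-expression the level was 0.34 ± 0.0959 above si-EZH2 on 3 of 3 arrays, at an adjusted p of 0.0716, which does not pass. The T350A re-expression level was 0.13 ± 0.0959 above si-EZH2 (adjusted p = 0.596) and -0.21 ± 0.0959 relative to EZH2 re-expression (adjusted p = 0.556). CLDN11 passed in EZH2 re-expression minus si-EZH2 in 7 of 12 alternative fits over all arrays, limma-trend among them (adjusted p = 0.019).

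CLDN12, a widely expressed claudin, changed little. It averaged 8.99 ± 0.0747 in T350A re-expression, 9.14 ± 0.165 in EZH2 re-expression, 8.90 ± 0.0785 in si-EZH2 and 8.86 ± 0.142 in si-Control cells (SD, n = 3 each). The difference between si-EZH2 and si-Control cells was 0.03, with a 95% interval of -0.20 to 0.27. The arrays of EZH2 re-expression lay 0.25 ± 0.111 above those of si-EZH2 without overlap, at an adjusted p of 0.248.

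OCLN was not well above background. Its probes ILMN_1724149 and ILMN_2255088 were detected on 0 of 12 arrays, with smallest detection p-values of 0.0831 and 0.786. No fold is given for it in any comparison. TJP1 had 2 tested probes, annotated to different transcripts. Probe ILMN_2403006 read 8.93, 8.90 and 9.04 in T350A re-expression, 9.04, 9.02 and 8.65 in EZH2 re-expression, 9.23, 9.29 and 9.29 in si-EZH2, and 9.29, 9.34 and 9.43 in si-Control cells. Both re-expression groups lay below both groups with control virus on this probe. EZH2 re-expression was 0.45 lower than si-Control on the log2 scale (-0.45 ± 0.112, 1.36-fold lower, adjusted p = 0.0251, lower on 3 of 3 arrays). Left out in turn, si-Control replicates 1, 2 and 3 and EZH2 re-expression replicate 3 each ended that call, with adjusted p of 0.0534, 0.0551, 0.0884 and 0.11. Without EZH2 re-expression replicate 3, which had the lowest array, the difference was -0.32. T350A re-expression minus si-Control was -0.40 ± 0.112 on this probe (adjusted p = 0.0615), and it passed without EZH2 re-expression replicate 3 (adjusted p = 0.0379) and with limma-trend (adjusted p = 0.0128).

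The other TJP1 probe, ILMN_1691499, read 9.72, 10.01 and 9.89 in T350A re-expression, 10.16, 10.14 and 10.27 in EZH2 re-expression, 10.10, 10.30 and 10.56 in si-EZH2, and 10.20, 10.41 and 10.28 in si-Control cells. Here only the T350A re-expression arrays were below all others. They differed by -0.45 ± 0.123 from si-EZH2 (adjusted p = 0.142), -0.42 ± 0.123 from si-Control (adjusted p = 0.0707) and -0.32 ± 0.123 from EZH2 re-expression (adjusted p = 0.494). EZH2 re-expression minus si-Control was -0.11 ± 0.123 on this probe (adjusted p = 0.662). Averaging both probes gave -0.28 for EZH2 re-expression minus si-Control (adjusted p = 0.0573), so the TJP1 call with EZH2 re-expression rested on 1 probe. For T350A re-expression minus si-Control, where the probes gave -0.42 and -0.40, the average was -0.41 and was called (adjusted p = 0.0149). In that comparison ILMN_1691499 also passed without background correction, with median scaling, with offset 50, in the authors' values, with the strict filter and with limma-trend, at adjusted p of 0.00798 to 0.0438.

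The mesenchymal adhesion genes were bright and nearly flat. CDH2, N-cadherin, averaged 12.52 ± 0.107 in T350A re-expression, 12.69 ± 0.0641 in EZH2 re-expression, 12.47 ± 0.0608 in si-EZH2 and 12.44 ± 0.156 in si-Control cells (SD, n = 3 each). All 3 EZH2 re-expression arrays, at 12.68, 12.63 and 12.76, were above those of si-EZH2 and of si-Control, by 0.22 ± 0.105 (adjusted p = 0.28) and 0.25 ± 0.105 (adjusted p = 0.166). CDH11, a cadherin of mesenchymal cells, had means of 12.32, 12.23, 12.30 and 12.25 in T350A re-expression, EZH2 re-expression, si-EZH2 and si-Control cells. Its 6 differences lay between -0.07 and 0.08, and the arrays overlapped in each comparison. GJA1, the main connexin of fibroblasts, averaged 12.88 ± 0.195 in T350A re-expression, 12.97 ± 0.136 in EZH2 re-expression, 13.07 ± 0.0583 in si-EZH2 and 12.98 ± 0.0346 in si-Control cells. The si-EZH2 arrays, 13.03, 13.05 and 13.14, were all above the si-Control arrays, 13.02, 12.96 and 12.97, but by only 0.09 (95% interval -0.15 to 0.33).

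Counted over the set, few probes passed. Every comparison with si-EZH2 or si-Control reuses arrays on which CLDN1 was chosen, so nothing is read from the counts there that include CLDN1. Between EZH2 re-expression and si-EZH2 cells, 0 of 8 rose and 1 fell (CLDN1), beside 2.88% of all tested probes called in either direction, and 5 of 8 did not overlap beside 25% of all. Between T350A re-expression and si-EZH2 cells, 0 of 8 were called by limma, 3 had an unadjusted p under 0.05, and limma-trend called 2 (CLDN1 and TJP1). The background there was 0.103% called and 18.6% not overlapping, against 4 of 8 junction probes not overlapping. T350A re-expression minus EZH2 re-expression had 0 of 8 called, in the main limma fit and with limma-trend, and 2 had an unadjusted p under 0.05 in the main fit. That comparison called 0.00858% of all probes, and 2 of 8 junction probes did not overlap beside 14.6% of all. In EZH2 re-expression minus si-Control, 1 rose (CLDN1) and 1 fell (TJP1) beside 7.24% of all probes called, and 3 of 8 did not overlap beside 28.6%. In T350A re-expression minus si-Control, 1 rose (CLDN1) and 0 fell beside 3.56% of all called, and 4 of 8 did not overlap beside 22.9%. The median difference over all tested probes was 0 in each comparison.

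A wider list of 50 further junction genes with a tested probe, taken 1 probe per gene, held no rise of the size of CLDN1. In si-EZH2 minus si-Control, 0 of 50 rose and 2 fell, with a median of -0.04 beside 0 over 12640 genes and with all values between -0.64 and 0.35. The called share was 4% of the list, while 1.95% of all genes rose and 1.5% fell. An unadjusted p under 0.05 was found for 15 (30% of the list beside 17.7% of all genes). Over all genes, 247 rose and 189 fell in that comparison. The 2 that fell were the tight junction scaffold AMOT, angiomotin, and the connexin GJD3. For EZH2 re-expression minus si-EZH2, limma called 0 of 50, while 11 had an unadjusted p under 0.05 (22% of the list beside 20.6% of all genes). For T350A re-expression minus si-EZH2 it also called 0 of 50, with 10 at an unadjusted p under 0.05 (20% beside 14.8%). T350A re-expression minus EZH2 re-expression gave 0 of 50 and 2 at that level (4% beside 8.76%). Against si-Control, 0 rose and 2 fell with T350A re-expression, 4% of the list, while 2.11% of all genes rose and 2.1% fell. There 9 had an unadjusted p under 0.05 (18% beside 21.3% of all genes). With EZH2 re-expression 1 rose and 4 fell, 10% of the list, while 4.32% of all genes rose and 4.48% fell. There 13 had an unadjusted p under 0.05 (26% beside 25.5%).

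**Figure D3:**
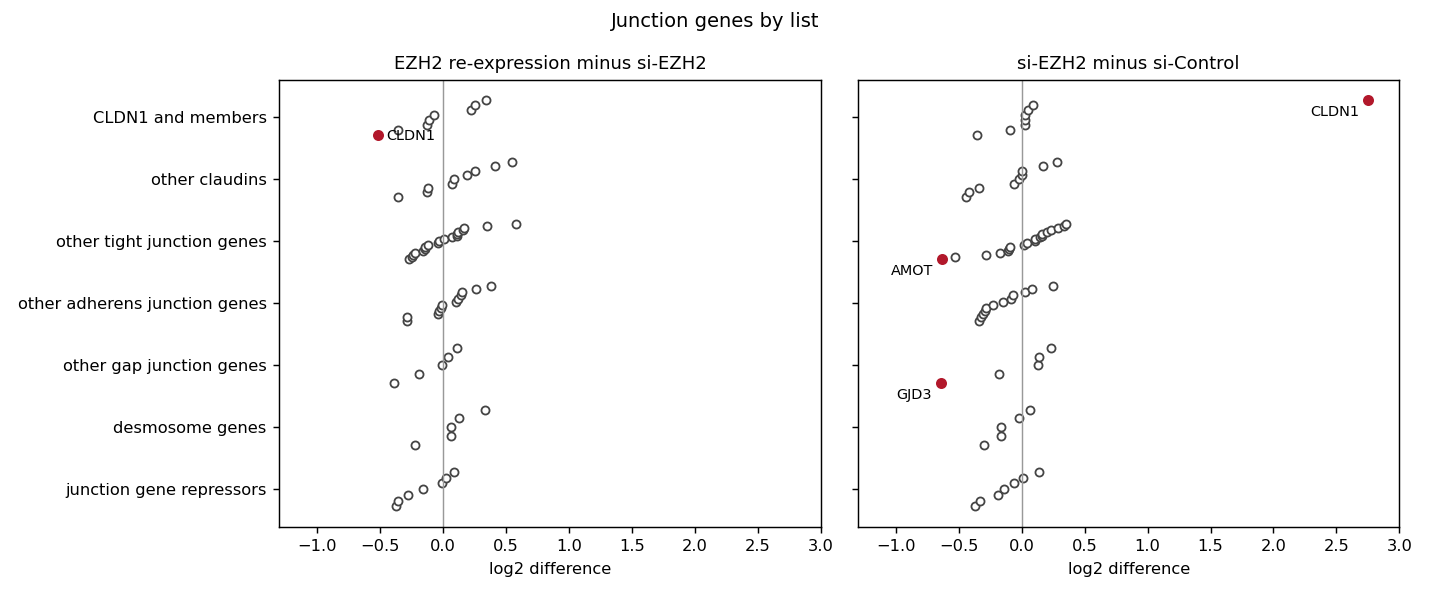
Log2 differences of the junction genes by list, 1 probe per gene except for the members, whose 8 probes are all drawn. The left panel shows EZH2 re-expression minus si-EZH2 and the right panel si-EZH2 minus si-Control. Filled points passed an adjusted p of 0.05 and are named. CLDN1 lies at 2.75 on the right, and all other junction genes there lie between -0.64 and 0.35.

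AMOT was lower than si-Control in every group that received EZH2 siRNA. Its arrays read 7.53, 7.42 and 7.68 in T350A re-expression, 7.79, 7.71 and 7.81 in EZH2 re-expression, 7.68, 7.56 and 7.58 in si-EZH2, and 8.16, 8.25 and 8.32 in si-Control cells. The si-Control arrays were above all 9 others. The differences from si-Control were -0.70 ± 0.0992 with T350A re-expression (adjusted p = 0.00165), -0.47 ± 0.0992 with EZH2 re-expression (adjusted p = 0.0105) and -0.63 ± 0.0992 in si-EZH2 cells (adjusted p = 0.0019). These comparisons share the si-Control arrays. The call for EZH2 re-expression was lost with chip section as a covariate (adjusted p = 0.0504).

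GJD3 gave 6.56, 6.38 and 6.21 in T350A re-expression, 6.38, 6.45 and 6.31 in EZH2 re-expression, 6.62, 6.15 and 6.41 in si-EZH2, and 6.83, 7.35 and 6.91 in si-Control cells. Again the si-Control arrays were the highest, with replicate 2 above the other two. The si-EZH2 minus si-Control difference was -0.64 ± 0.148 (adjusted p = 0.0304), and both re-expression differences were -0.65 ± 0.148 (adjusted p = 0.0267 with T350A re-expression and 0.0165 with EZH2 re-expression). Without si-Control replicate 2 all 3 calls were lost, at -0.48 with T350A re-expression, -0.49 with EZH2 re-expression and -0.47 in si-EZH2 cells (adjusted p = 0.0874, 0.0614 and 0.118). With chip section as a covariate all 3 were lost as well (adjusted p = 0.0662, 0.266 and 0.116 in the same order). The calls with T350A re-expression and in si-EZH2 cells were lost without a filter (0.0567 and 0.0695) and with only the compared groups (0.0719 and 0.0769). The T350A re-expression call was also lost without si-Control replicate 3 or T350A re-expression replicate 2 or 3, and the EZH2 re-expression call without its replicate 3. The si-EZH2 call was also lost without si-Control replicate 3 or si-EZH2 replicate 2 or 3. In the fits that left out 1 array the adjusted p ran up to 0.126.

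By family, 9 of 20 other claudin and claudin-domain genes with a probe were tested, and 0 rose in any comparison by limma, where 0 to 4.32% of all genes rose. An unadjusted p under 0.05 in either direction was found for 4 of 9 in si-EZH2 minus si-Control (17.7% of all genes). EZH2 re-expression minus si-EZH2 also had 4 of 9 (20.6% of all genes). The other comparisons had 0 to 3 of 9, beside 8.76% to 25.5% of all genes. CLDND2, a claudin-domain protein, fell by 0.54 in EZH2 re-expression relative to si-Control (SE 0.152, adjusted p = 0.0432). That call was lost without any one array of those groups, and without si-EZH2 replicate 1 or 3, with adjusted p up to 0.134. It was also lost without a filter (0.0873), with the replicate block (0.0551) and with chip section (0.112). CLDND1, another claudin-domain protein, had probes that gave similar values on either side of the threshold in EZH2 re-expression minus si-EZH2, -0.36 (adjusted p = 0.0705) on the brighter ILMN_2352563 and -0.45 (adjusted p = 0.0365) on ILMN_1710326. In si-EZH2 minus si-Control these CLDND1 probes gave 0.28 (adjusted p = 0.164) and 0.33 (adjusted p = 0.122), not called, with all 3 si-EZH2 arrays above the si-Control arrays on both. CLDN15 and CLDN23, both claudins, had smallest adjusted p of 0.0751 and 0.0882 over the comparisons. For CLDN15 all EZH2 siRNA arrays exceeded si-Control, by 0.33 with T350A re-expression, 0.26 with EZH2 re-expression and 0.17 in si-EZH2 cells, uncalled. The CLDN23 differences from si-Control were, in that order, -0.1, -0.08 and -0.34, also uncalled. Among 19 tested tight junction genes, MPDZ, a scaffold with many PDZ domains, fell by 0.52 in EZH2 re-expression relative to si-Control (SE 0.103, adjusted p = 0.00706), a call lost with chip section as a covariate (adjusted p = 0.103). YBX3, a nucleic acid-binding protein that TJP1 can hold at junctions, rose by 0.40 there (SE 0.105, adjusted p = 0.032). All YBX3 arrays also exceeded si-Control with T350A re-expression (0.19, adjusted p = 0.338) and in si-EZH2 cells (0.29, adjusted p = 0.166), uncalled in both. The YBX3 call with EZH2 re-expression was lost without si-Control replicate 1 or 2 or EZH2 re-expression replicate 1 or 2, with differences of 0.36, 0.39, 0.42 and 0.32. The YBX3 call was lost with median scaling (adjusted p = 0.0805), with only the compared groups (0.0656) and with chip section (0.273) too.

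Of 12 tested adherens junction genes and 5 desmosome genes, limma called 0 in each of the 6 comparisons, while 0 to 4 adherens and 0 or 1 desmosome genes had an unadjusted p under 0.05. In si-EZH2 minus si-Control, 4 of 12 adherens and 0 of 5 desmosome genes did, beside 17.7% of all genes. There 1.95% of all genes rose and 1.5% fell. In the other comparisons 8.76% to 25.5% of all genes had an unadjusted p under 0.05, beside 0 or 2 adherens genes. The adherens genes nearest to a call were CDH15 (adjusted p = 0.0576 in EZH2 re-expression minus si-EZH2, difference 0.38) and CTNNB1, beta-catenin, at -0.39 in T350A re-expression minus si-Control (adjusted p = 0.0667). CDH15 was at background in si-EZH2 cells, with a mean of 4.66. On those arrays EZH2 probe ILMN_2364529, at 4.59 to 4.73, had detection p-values of 0.161 to 0.365. Nothing is therefore read from the CDH15 difference. Plakoglobin (JUP) and alpha-catenin (CTNNA1) had smallest adjusted p of 0.106 and 0.121 on their brightest probes. A dimmer JUP probe, ILMN_1741970, came closer, at -0.39 in T350A re-expression minus si-Control (adjusted p = 0.051). In that comparison the brightest JUP probe gave -0.37 (adjusted p = 0.106), and ILMN_2366864 gave -0.26 (adjusted p = 0.301). The median of the adherens list in si-EZH2 minus si-Control was -0.19, beside 0 over all genes. For the desmosome genes DSP, DSC3, PERP and PKP4 the smallest adjusted p over the comparisons ran from 0.221 to 0.748. Of 5 tested gap junction genes GJD3 alone was called, and PANX1, a pannexin channel, had -0.39 in EZH2 re-expression minus si-EZH2 (adjusted p = 0.078). PANX1 was -0.46 in T350A re-expression minus si-EZH2 (adjusted p = 0.0945), and the si-EZH2 arrays were above those of every other group. From si-Control it differed by -0.23 with T350A re-expression (adjusted p = 0.277), -0.15 with EZH2 re-expression (adjusted p = 0.452) and 0.23 in si-EZH2 cells (adjusted p = 0.33), all uncalled.

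Transcription factors known to repress epithelial junction genes were listed as well, and 7 of 9 were tested. In si-EZH2 minus si-Control limma called 0 of 7, with an unadjusted p under 0.05 for 2 of them and a median of -0.14 and values between -0.37 and 0.14. Relative to si-Control, 3 of 7 fell with T350A re-expression, while 2.11% of all genes rose and 2.1% fell. With EZH2 re-expression 2 of 7 fell, while 4.32% of all genes rose and 4.48% fell. Of the 7, 0 rose in either. An unadjusted p under 0.05 was found for 6 of 7 with T350A re-expression (21.3% of all genes) and for 4 of 7 with EZH2 re-expression (25.5% of all genes). TCF3 (E2A) averaged 8.38 in T350A re-expression, 8.23 in EZH2 re-expression, 8.51 in si-EZH2 and 8.88 in si-Control cells. From si-Control, T350A re-expression differed by -0.50 ± 0.108 (adjusted p = 0.0211) and EZH2 re-expression by -0.65 ± 0.108 (adjusted p = 0.00262). ZEB1 averaged 5.64 in T350A re-expression, 6.43 in si-EZH2 and 6.29 in si-Control cells. T350A re-expression minus si-Control was -0.65 ± 0.161 for ZEB1 (adjusted p = 0.0366). The ZEB1 call was lost without any T350A re-expression array and without si-Control replicate 1 or 3, with adjusted p up to 0.132, and also without a filter (0.0797) and with only the compared groups (0.0529). The TCF3 call with T350A re-expression was lost without si-Control replicate 1 or 3 or T350A re-expression replicate 2, with adjusted p up to 0.0918, and with only the compared groups (0.0696). The TCF3 call with EZH2 re-expression was lost with chip section as a covariate (-0.62, adjusted p = 0.0671) and held in the other 23 alternative fits. SNAI2 (Slug) was -0.39 ± 0.102 with T350A re-expression (adjusted p = 0.0494) and -0.42 ± 0.102 with EZH2 re-expression (adjusted p = 0.0212) on probe ILMN_2082585. Its second probe, ILMN_1655740, gave -0.01 (adjusted p = 0.97) and -0.19 (adjusted p = 0.308) in the same comparisons, so the SNAI2 probes disagreed. The SNAI2 call with T350A re-expression held in 8 of 24 alternative fits and was lost without any array other than si-EZH2 replicate 2. That with EZH2 re-expression was lost without any si-Control array or EZH2 re-expression replicate 1 or 3, and with chip section (adjusted p = 0.094).

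Some markers of other cell types differed between groups too. Of 13 epithelial markers, 7 were tested, and their mean log2 level per array was 6.77 to 6.99 in T350A re-expression, 7.02 to 7.19 in EZH2 re-expression, 6.79 to 6.87 in si-EZH2 and 6.87 to 7.09 in si-Control cells. KRT19, a keratin and the brightest of them, was 0.50 ± 0.091 higher in EZH2 re-expression than in si-EZH2 (adjusted p = 0.00887), the comparison in which CLDN1 was lower. EPCAM was -0.62 ± 0.106 in T350A re-expression relative to si-Control (adjusted p = 0.0055). It was the lowest of the 7 tested epithelial markers in that comparison. There 5 of the 7 were higher than in si-Control, the median was 0.05, and 2.11% of all genes rose and 2.1% fell. In si-EZH2 minus si-Control, where CLDN1 was 2.75 higher, limma called 0 of the 7 epithelial markers, 0 of 5 leukocyte markers and 0 of 10 fibroblast markers, and 2, 1 and 1 of them had an unadjusted p under 0.05, beside 17.7% of all genes. CD14 was the leukocyte marker called in EZH2 re-expression, at 0.85 over si-EZH2 (adjusted p = 0.00135) and 0.51 over si-Control (adjusted p = 0.0109). Of 9 endothelial markers only TEK was tested, and it was not called. Of the 10 fibroblast markers in EZH2 re-expression minus si-EZH2, limma called 0, while 6 reached an unadjusted p under 0.05, beside 20.6% of all genes, and the median over all 10 was -0.25. The part of these markers in the CLDN1 values was not tested.

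The genes whose log2 values over the 12 arrays were most like those of CLDN1 were TCIM (Pearson r = 0.982), EPSTI1 (0.977), SYNDIG1 (0.976), CXCL6 (0.976) and HERC5 (0.971). No junction gene was among them, but nothing is read from that, because only the top few of 12640 genes were looked at. The arrays fall into 3 low ones, all si-Control, and 9 high ones, and they share 1 chip. Within the 9 arrays with EZH2 siRNA, r was 0.651 for TCIM, 0.832 for EPSTI1, 0.516 for SYNDIG1, 0.825 for CXCL6 and 0.486 for HERC5. CXCL6, a neutrophil-attracting chemokine, averaged 8.46 in T350A re-expression, 8.33 in EZH2 re-expression, 8.88 in si-EZH2 and 7.11 in si-Control cells. EPSTI1, known as an interferon-induced gene, averaged 10.11 in T350A re-expression, 10.20 in EZH2 re-expression, 10.32 in si-EZH2 and 9.45 in si-Control cells. Like CLDN1, each of the genes most like it, TCIM, SYNDIG1 and HERC5 included, had its highest mean in si-EZH2 cells and its lowest in si-Control cells. Nothing is read from that order, because these genes were picked by their likeness to CLDN1. Most opposite were C10orf105 (-0.955), CHCHD10 (-0.951) and VASN (-0.944), whose r over the 9 arrays was -0.248, -0.158 and -0.347.

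**Figure D4:**
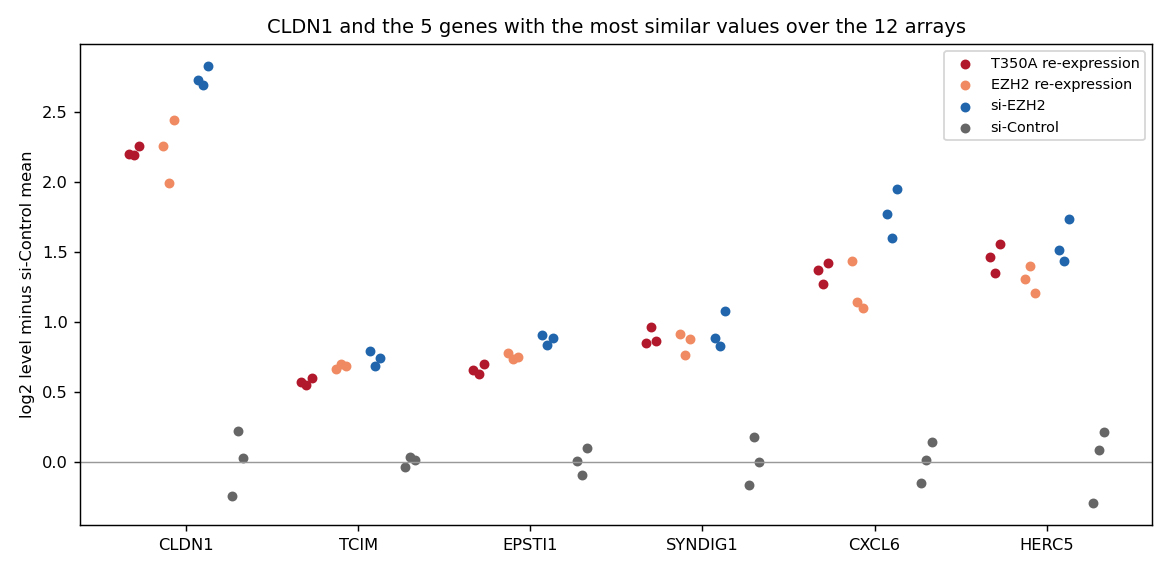
Log2 level minus the si-Control mean on each array for CLDN1 and the 5 genes most like it, with the arrays of each group as points in the order T350A re-expression, EZH2 re-expression, si-EZH2, si-Control. The si-Control arrays lie around 0 for all 6 genes and the other arrays lie above them.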

How the data were processed

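Total RNA of 12 BJ samples was hybridised as biotin-labelled cRNA to 1 Illumina chip, per the labels. The deposited non-normalized table held linear intensity values for 47231 probes, not background-subtracted, each with a detection p-value, per the file headers. The authors' normalized intensity values, for 47229 probes, served as an alternative, and their method is not given in the sources used here. Gene symbols came from the platform's probe annotation, with 1 symbol for 30113 probes, several for 8 and none for 17110.

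Deposited intensities were background-corrected, quantile-normalised and put on the log2 scale with neqc in limma 3.58.1 (R 4.3.3, offset 16). Probes with detection p under 0.05 on at least 3 of 12 arrays were tested (23313 probes, 12640 genes). One model with 4 group means was fitted in limma (8 residual and 7.29 prior degrees of freedom), with 6 two-sided comparisons. Benjamini-Hochberg adjustment ran over all tested probes, and a call is an adjusted p under 0.05. The median SD between replicates was 0.153. Lists took 1 probe per gene, that with the highest mean. Up to 4 genes per list with the smallest adjusted p were named. The markers KRT19, EPCAM, CD14 and TEK were singled out after their values were seen. Members and lists were chosen with earlier results of these data known. The fit was tested on simulated data. Promoters were read with Python 3.11.15 and pandas 2.3.3. Alternatives changed the background correction, scaling, filter, variance model, covariates and arrays used. The alternative named limma-trend is the same limma fit with a variance trend and robust moderation. No column was left unmatched to a sample.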

Additional observations from a re-analysis of the deposited data

How the results depend on the processing

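Chip section, replicate number and every other alternative kept the sign of CLDN1 wherever the text gives it a direction, and 0 calls of a junction probe turned over. CLDN1 in si-EZH2 minus si-Control, 2.75, was 1.74 without background correction, 2.00 with offset 50 and 1.93 in the authors' values, and 1.33 to 2.24 (EZH2 re-expression) and 1.32 to 2.22 (T350A re-expression) against si-Control. In EZH2 re-expression minus si-EZH2 it was -0.52 without a filter (adjusted p = 0.0717), with only the compared groups (0.062) and with the replicate block (0.054), and -0.56 with chip section (0.0748), no longer called. Over arrays left out it was -0.63 to -0.40. In T350A re-expression minus si-EZH2 it became called at -0.42 without background correction, -0.46 with offset 50, -0.44 in the authors' values and -0.53 with limma-trend. The cause was not tested. With a detection p under 0.01 required on all 12 arrays, CLDN1 was no longer tested, because si-Control replicate 1 had 0.039.

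Of the junction probes, 1 passed in si-EZH2 minus si-Control, and 2 did (CLDN1 and CLDN11) without background correction, with offset 50, in the authors' values, without a filter, with limma-trend and with probes averaged. With the strict filter the 1 call was CLDN11, because CLDN1 was not tested. In EZH2 re-expression minus si-EZH2 the count of 1 (CLDN11 in place of CLDN1 without a filter) was 3 without background correction, with offset 50, in the authors' values and with limma-trend, 2 with the strict filter and with probes averaged, and 0 with only the compared groups, the replicate block or chip section. It was 0 or 1 over arrays left out. For T350A re-expression minus si-EZH2 the count of 0 was 2 under the first 4 of those settings. In EZH2 re-expression minus si-Control the count of 2 was 1 with the strict filter, only the compared groups, chip section or probes averaged, 3 in the authors' values, and 1 or 2 over arrays left out. Against si-Control, T350A re-expression had its count of 1 become 3 under those 4 settings and with median scaling, 2 with the strict filter or probes averaged, and 1 or 2 over arrays left out. T350A re-expression minus EZH2 re-expression had 0 throughout.

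For the other members, 799 of 840 alternative values in the 5 comparisons other than si-EZH2 minus si-Control kept their side of the threshold and size, 32 gained a call, 7 lost one and 2 moved. In si-EZH2 minus si-Control 161 of 168 did, and 7, all of CLDN11, gained a call. The sign changed in 31 of these values, 0 of them called. Alternative fits for AMOT, GJD3 and the other called list genes were chosen after seeing the data. Same-numbered arrays did not deviate together (18 correlations, -0.0363 to 0.0709), so the numbers were not taken as pairs. At levels near background, as for CLDN1 in si-Control cells and for OCLN, signal over background limits the size of any difference.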
